A study of Mus musculus with 16 samples.

Results

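The comparison described here is that of 6-month-old mice 2 days after diethylnitrosamine (DEN) with untreated mice of the same age, and it takes in 5 of the 16 RNAseq libraries of the study. The libraries were chosen by their labels, 2 as controls at time point 0 and 3 as day 2 after DEN. All were livers of wild-type C57BL/6 males, and the treated mice had received DEN by intraperitoneal injection at a labelled dose of 25 mg/kg, which the methods print as 25 mg/g. The controls were untreated, and no control was labelled as taken on day 2, so that handling, injection and the time of day cannot be told apart from DEN. For each library, RNA of 3 mice was pooled in equal parts, and an SD given here is therefore a spread between pools and not between mice. Beside these 5, the day 6 libraries of the same age (3 libraries) and the day 2 comparison of 1-month-old mice (5 libraries, labelled as 3 to 4 weeks) are used where a difference from them was tested.

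DEN is turned into a DNA-alkylating agent by cytochrome P450 enzymes of the hepatocyte, foremost Cyp2e1, which are most abundant in the cells around the central vein. Alkylated bases that are not repaired stall replication and transcription, and the damage kinases then stabilize p53. p53 is a transcription factor, and its targets arrest the cell cycle (Cdkn1a), kill the cell (Bax, death receptors), repair or bypass lesions (Polk) and restrain p53 itself (Mdm2).

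Total counts were 21475231 and 34459774 in the controls and 30606448, 23783510 and 28071029 at day 2. Levels are given as CPM, the counts of a gene over the total of its library after TMM scaling, and differences as log2 fold changes of day 2 against control with their standard error (SE). Of the 12 hepatocyte markers listed, 11 were tested, at a summed level of 60672 to 61275 CPM in controls and 55735 to 58336 CPM at day 2, and Alb, the gene of albumin, is listed at 0 in each of them. Control 2 lay apart from the other libraries on the first principal component (33.5% of the variance), at -47.6 against -2.70 to 25.9. The clock score, a difference in log2 CPM between clock genes of opposite phase, was 1.62 and 1.81 in the controls and 4.05, 3.14 and -0.03 at day 2, and all 50 genes described here also passed with this score as a covariate. With bulk RNA, fewer cells of a type and less RNA per cell cannot be told apart.

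At day 2, 50 of 15684 genes tested passed an adjusted p under 0.1 in edgeR's quasi-likelihood test, which is 0.319% of the genes. Of these, 38 were higher (0.242% of genes tested) and 12 were lower (0.0765%), by log2 fold changes from 0.78 up to 4.39 (Trp53cor1) and from -0.88 down to -3.75, leaving out 2 genes that rose from 3 or fewer control counts. In all 50 genes the day 2 libraries lay wholly on one side of both controls, as did 10.8% of all genes tested on the upper and 11.1% on the lower side. The 50 were chosen by a test on these same libraries, so that this separation follows largely from the choice. The genes that rose included 14 targets or regulators of p53, and those that fell included Glul and Oat of pericentral hepatocytes and 4 genes that each span more than 500 kb of genome. The unadjusted p was under 0.05 for 629 genes, fewer than the 784 that evenly spread p-values would give. Just inside the threshold lay Zak at an adjusted p of 0.0787 (log2 fold change 0.82), and just outside it 1700007K13Rik at 0.102 (log2 fold change 6.02) and Zmat3 at 0.118 (log2 fold change 1.37). Without control 2 the count was 12 genes, and without day 2 replicate 1 it was 31, of which 11 and 31 were among the 50. The genes called in each of the 5 fits that left out a library numbered 10, and they were Gria3, Aatk, Atp8b5, Ddit4l, Plk2, Ddias, 2410089E03Rik, Sulf2, Exoc4 and Gm13775, of which 2410089E03Rik, Exoc4 and Gm13775 were named after their values were seen. Zak and 1700007K13Rik were named in the same way.

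The 5 lists of p53 genes held 75 names, of which 73 were in the table and 70 had enough counts to be tested. Of the 70, 14 rose, none fell and 56 did not pass, against 0.242% of all genes that rose. The median log2 fold change of the 70 was 0.29, against 0.00 for all genes tested. The number of members above both controls was 36 of 70 (51.4%), against 10.8% of all genes, and 5 of 70 (7.14%) lay below both, against 11.1%. These lists were written when p53 genes of this study were known, so that their counts are not independent evidence of a direction. DESeq2 called 22 members higher and the fit without a filter on low counts 22, while leaving out control 1 or control 2 left 6 or 3. Transcripts of p53 itself (Trp53) were at 17.2 and 17.3 CPM in the controls and at 16.1, 15.8 and 15.8 CPM at day 2, a log2 fold change of -0.12 (SE 0.206, adjusted p = 1).

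**Figure D1:**
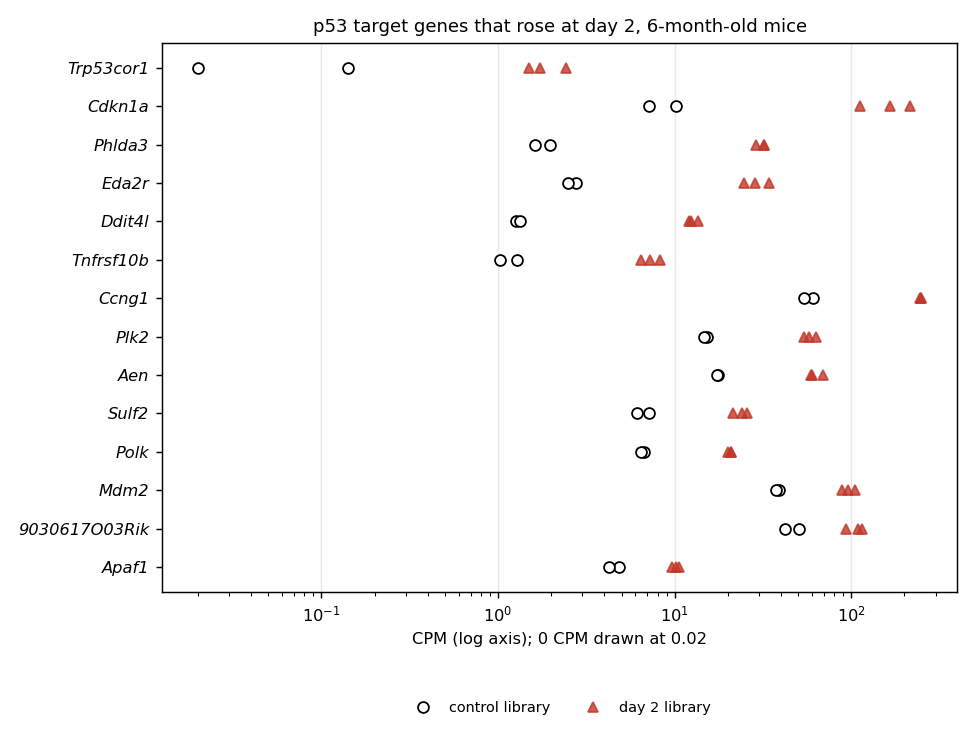
CPM on a log axis of the 14 p53 list genes that rose, with 1 row per gene and 1 mark per library (open circles 2 controls, triangles 3 day 2 libraries). A control of 0 CPM (Trp53cor1) is drawn at the left edge. In every row the 3 triangles lie to the right of both circles, and the gap is widest in Trp53cor1, Cdkn1a and Phlda3.

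Of 11 genes of p53 feedback and turnover, 3 rose and 8 did not pass. Ccng1 (ENSMUSG00000020326, chromosome 11 of GRCm38 from 40748552 to 40755311), whose product cyclin G1 recruits a phosphatase that activates Mdm2, was at 61.0 and 53.9 CPM in the controls and at 249, 247 and 245 CPM at day 2. The day 2 libraries were thus nearly alike and all far above both controls, with a mean that went from 57.4 ± 5.05 CPM (SD, n = 2) up to 247 ± 2.14 CPM (SD, n = 3), a log2 fold change of 2.10 (SE 0.302, adjusted p = 0.00671). Mdm2 (ENSMUSG00000020184, chromosome 10 from 117688888 to 117710758), the ubiquitin ligase that destroys p53, was at 39.1 and 37.4 CPM in controls and at 105, 88.7 and 96.3 CPM at day 2. It rose by a log2 fold change of 1.34 (SE 0.209, adjusted p = 0.0114). The long noncoding RNA Trp53cor1, known as lincRNA-p21, was at 0 and 0.142 CPM and at 1.5, 2.42 and 1.73 CPM. Its log2 fold change of 4.39 (SE 0.775, adjusted p = 0.0281) rests on 5 control counts, all in control 2, and so depends on the prior count, with 8.61 without control 2 and 3.68 without control 1. Trp53cor1 lies on chromosome 17 on the other strand 12 kb from Cdkn1a, and whether strand was used in counting is not known here. Without control 2 the adjusted p was 0.167 for Ccng1, 0.252 for Mdm2 and 0.154 for Trp53cor1, and without control 1 it was 0.133 for Mdm2 and 0.255 for Trp53cor1. Zmat3, an RNA-binding target of p53, was at 8.92 and 9.84 CPM in controls and at 27.4, 19.9 and 25.7 CPM at day 2, and it did not pass. Trp53inp1, a stress protein that binds p53, was at 218 and 159 CPM and at 423, 276 and 449 CPM (adjusted p = 0.243).

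Among 10 genes of cell-cycle arrest, 2 rose and 8 did not pass. Cdkn1a (ENSMUSG00000023067, chromosome 17 from 29090979 to 29100722), which encodes the cyclin-dependent kinase inhibitor p21, was at 10.2 and 7.20 CPM in controls and at 166, 112 and 214 CPM at day 2. The lowest day 2 library was thus still more than 10 times the higher control, but the level differed between the day 2 pools, with a mean of 164 ± 51.0 CPM (SD, n = 3) against 8.71 ± 2.14 CPM (SD, n = 2). The rise of Cdkn1a had an adjusted p of 0.00143 in a model of only the 8 libraries of 6-month-old mice. With only the 5 libraries compared it was 0.00610. In the model of all 16 libraries the log2 fold change was 4.24 (SE 0.794, adjusted p = 0.0401). This call was lost without control 1 (adjusted p = 0.359), control 2 (0.625), day 2 replicate 1 (0.102) and day 2 replicate 3 (0.104). Plk2 (ENSMUSG00000021701, chromosome 13 from 110395044 to 110400844), a polo-like kinase, was at 15.3 and 14.7 CPM and at 57.5, 54.2 and 63.0 CPM. It rose by a log2 fold change of 1.96 (SE 0.197, adjusted p = 3.00e-04) and passed without any 1 of the 5 libraries. Gtse1, which binds p53 in G2 cells, was at 0.747 and 1.96 CPM and at 6.20, 3.93 and 6.24 CPM (adjusted p = 0.182). Psrc1, a microtubule protein, was at 0.420 and 0.626 CPM and at 3.38, 2.38 and 1.89 CPM (adjusted p = 0.2205). Both lay above the controls in every day 2 library and did not pass.

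Of 20 genes of cell death, 5 rose and 15 did not pass, and the 5 divide into receptors and proteins inside the cell. Eda2r (ENSMUSG00000034457, chromosome X from 97333840 to 97377216), a receptor of the TNF superfamily that signals death, was at 2.75 and 2.50 CPM in controls and at 28.6, 24.6 and 34.2 CPM at day 2, a log2 fold change of 3.47 (SE 0.448, adjusted p = 0.00303). Tnfrsf10b (ENSMUSG00000022074, chromosome 14 from 69767472 to 69784403), the mouse receptor of TRAIL, was at 1.03 and 1.28 CPM and at 7.23, 6.47 and 8.23 CPM, a log2 fold change of 2.65 (SE 0.393, adjusted p = 0.00805). For both receptors no day 2 library came near the controls. Phlda3 (ENSMUSG00000041801, chromosome 1 from 135766119 to 135769136), which keeps Akt from the membrane, was at 1.96 and 1.62 CPM and at 28.8, 32.1 and 32.1 CPM, a log2 fold change of 4.12 (SE 0.782, adjusted p = 0.0443). In a model of only the 8 libraries of 6-month-old mice its adjusted p was 2.05e-04, and with only the 5 compared 5.90e-04. With limma-voom it was 0.166 and with a replicate block 0.205. The 1-month day 2 libraries, which the main model includes, were at 14.5, 32.8 and 3.44 CPM of Phlda3. Aen, an exonuclease of apoptotic cells, was at 17.5 and 17.5 CPM and at 68.8, 58.9 and 60.01 CPM, a log2 fold change of 1.84 (SE 0.272, adjusted p = 0.00805). Apaf1, the scaffold of the apoptosome, was at 4.86 and 4.24 CPM and at 10.2, 9.69 and 10.6 CPM, a log2 fold change of 1.16 (SE 0.216, adjusted p = 0.0401). The calls of Phlda3 and Apaf1 were lost in every fit that left out 1 library, at adjusted p-values of 0.109 to 0.636 and 0.103 to 0.625. Those of Aen and Tnfrsf10b were lost without control 1 (0.106 and 0.132) and control 2 (0.167 and 0.161), and that of Eda2r without control 2 (0.130).

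Bax, the effector that opens mitochondria, was at 16.6 and 15.9 CPM in controls and at 34.8, 35.5 and 31.6 CPM at day 2, a log2 fold change of 1.06 (SE 0.261) that did not pass (adjusted p = 0.216). Ei24 was at 204 and 172 CPM and at 248, 249 and 246 CPM (adjusted p = 0.586). Of the list of the BCL2 family and caspases, which holds Park2 as a regulator of mitochondrial clearance, none of 29 members tested rose and only Park2 fell. The median of that list was 0.01, close to that of all genes.

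Of 8 genes of DNA repair among p53 targets, 1 rose. Polk (ENSMUSG00000021668, chromosome 13 from 96480689 to 96542485), a DNA polymerase that copies past bulky lesions, was at 6.72 and 6.49 CPM in controls and at 20.8, 20.1 and 20.8 CPM at day 2. Its level at day 2 was thus nearly the same in all 3 pools, and its log2 fold change was 1.64 (SE 0.231, adjusted p = 0.00594, and 0.161 without control 2). The nuclease gene Ercc5 was at 19.3 and 21.1 CPM and at 27.5, 28.4 and 30.0 CPM (adjusted p = 0.399), and Fancc, of the Fanconi core complex, was at 5.70 and 6.00 CPM and at 4.26, 5.26 and 3.88 CPM (adjusted p = 1). No gene passed among 20 of damage signalling, 32 of double-strand break repair, 24 of alkylation and base excision repair and 23 of nucleotide excision and mismatch repair. Their median log2 fold changes were -0.08, -0.02, 0.01 and 0.06.

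The last p53 list, of metabolism and other roles, had 3 of 21 genes that rose. Ddit4l (ENSMUSG00000046818, chromosome 3 from 137621612 to 137628333), a stress-induced inhibitor of mTOR signaling, was at 1.26 and 1.34 CPM in controls and at 12.1, 12.4 and 13.5 CPM at day 2, a log2 fold change of 3.28 (SE 0.316, adjusted p = 2.27e-04). Sulf2 (ENSMUSG00000006800, chromosome 2 from 166073089 to 166155663), a sulfatase of heparan sulfate at the cell surface, was at 6.12 and 7.20 CPM and at 25.6, 21.4 and 24.2 CPM, a log2 fold change of 1.83 (SE 0.216, adjusted p = 0.00129). Neither gene lost its call when 1 library was left out. The locus 9030617O03Rik was at 42.3 and 50.3 CPM and at 115, 110 and 92.9 CPM, a log2 fold change of 1.19 (SE 0.219, adjusted p = 0.0379), and it passed only without day 2 replicate 3 among the fits that left out a library, with adjusted p-values of 0.118 to 0.538 in the others. Ak1, an adenylate kinase, was at 0.187 and 0.114 CPM and at 0.720, 0.710 and 1.10 CPM (adjusted p = 0.167). Sesn2, a sestrin that restrains mTOR, was at 10.6 and 11.0 CPM and at 25.0, 20.005 and 23.4 CPM (adjusted p = 0.295). Across the 5 lists, 22 of the 56 genes that did not pass lay above both controls and 5 below, with log2 fold changes from -0.77 to 2.51, where 10.8% and 11.1% of all genes did.

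Promoters of the genes that rose were searched for the p53 response element, because its presence can be read from sequence without the expression data. RefSeq promoters of GRCm38.p6, each 250 bases before to 50 bases after a start, were given for 29 of the 38 genes that rose, for 8 of the 12 that fell and for 10978 of all genes tested. These were 14045 promoters, and a gene was counted once where any of its promoters held a match. The element searched for was 2 half-sites of 10 bases up to 13 bases apart. The central C and G of each were kept, with at most 2 other mismatches in all. On either strand, it stood in a promoter of 3 of 29 genes that rose (10.3%) and of 0 of 8 that fell. Over all genes tested it was 505 of 10978 (4.60%). A single half-site without mismatch stood in 10 of 29 (34.5%), 0 of 8 and 924 of 10978 (8.42%), and the 10 genes were Aen, Ccng1, Cdkn1a, Ddit4l, Exoc4, Lrtm2, Mdm2, Polk, Sec14l5 and Serpina3n. The E-box CACGTG stood in a promoter of 3 of 29 genes that rose (10.3%), 1 of 8 that fell (12.5%) and 1239 of 10978 (11.3%). The antioxidant response element TGACNNNGC stood in 5 of 29 (17.2%), 1 of 8 (12.5%) and 1850 of 10978 (16.9%). A match of letters is no evidence of binding. For each of the 3 genes with a full element, only the pair of half-sites with the fewest mismatches is marked, in capitals. Up to 40 bases are shown on each side, all upstream of the start and read along the gene. The stretches shown lie at chr17:29090866-29090977 on the plus strand for Cdkn1a (0 mismatches, 12 bases between half-sites), at chr11:40755422-40755521 on the minus strand for Ccng1 (1 mismatch, 0 bases between) and at chr12:104406458-104406564 on the plus strand for Serpina3n (1 mismatch, 11 bases between). In Cdkn1a the second marked half-site and the 10 bases right after it also form a pair within the rule (1 mismatch, 0 bases between).
Cdkn1a: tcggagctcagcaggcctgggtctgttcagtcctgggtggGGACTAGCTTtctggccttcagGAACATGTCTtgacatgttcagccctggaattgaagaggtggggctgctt
Ccng1: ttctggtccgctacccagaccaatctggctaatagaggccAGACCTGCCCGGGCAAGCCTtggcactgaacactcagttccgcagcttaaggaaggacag
Serpina3n: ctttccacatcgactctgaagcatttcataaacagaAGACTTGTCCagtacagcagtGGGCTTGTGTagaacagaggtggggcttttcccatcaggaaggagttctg

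Outside the p53 lists, the genes that rose most were of mixed kind. Gria3 (ENSMUSG00000001986, chromosome X from 41400854 to 41678601), a subunit of AMPA glutamate receptors, was at 2.47 and 2.65 CPM in controls and at 21.8, 17.4 and 18.9 CPM at day 2. It had the smallest p of all genes, with a log2 fold change of 2.91 (SE 0.268, adjusted p = 2.27e-04). Atp8b5 (ENSMUSG00000028457, chromosome 4 from 43267159 to 43373833), a phospholipid-transporting ATPase, was at 1.35 and 1.02 CPM and at 13.6, 17.0 and 15.3 CPM, a log2 fold change of 3.70 (SE 0.355, adjusted p = 2.27e-04). Ddias (ENSMUSG00000030641, chromosome 7 from 92857525 to 92874247), which restrains apoptosis after DNA damage, was at 1.91 and 2.08 CPM and at 11.6, 14.9 and 14.3 CPM, a log2 fold change of 2.76 (SE 0.289, adjusted p = 4.15e-04). None of these 3 lost its call when 1 library was left out, and in each the day 2 libraries were at several times the level of both controls. Lif, a cytokine of the interleukin 6 family, was at 0.140 and 0.142 CPM and at 2.38, 2.67 and 1.96 CPM, a log2 fold change of 4.00 (SE 0.686, adjusted p = 0.0225, and 0.255 and 0.503 without control 1 or 2). Mybl1, a transcription factor of the MYB family, was at 1.31 and 1.56 CPM and at 8.14, 6.39 and 8.76 CPM, a log2 fold change of 2.42 (SE 0.496, adjusted p = 0.0761, and 0.118 to 0.686 without any 1 library). Sec14l5 had no count in either control and 84 counts at day 2, which is at least 18.4-fold higher when the controls together are set to 3 counts, and it was named after its value was seen.

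Serpina3n (ENSMUSG00000021091, chromosome 12 from 104406729 to 104414329), an acute phase inhibitor of proteases with close copies beside it, was at 327 and 357 CPM in controls and at 976, 779 and 630 CPM at day 2, a log2 fold change of 1.22 (SE 0.194, adjusted p = 0.0130, and 0.234 and 0.169 without control 1 or 2). It was the 1 gene that passed of 35 of acute phase and inflammation, a list with a median of 0.10. Of the 35, 10 (28.6%) lay above both controls and 4 (11.4%) below, against 10.8% and 11.1% of all genes. Serum amyloid Saa1, named after its values were seen, was at 94.1 and 197 CPM in controls and at 530, 712 and 140 CPM at day 2, so that it was high in 2 of the 3 day 2 libraries and within the range of the controls in the other (adjusted p = 0.948). Ephx1 (ENSMUSG00000038776, chromosome 1 from 180976210 to 181020904), the microsomal epoxide hydrolase, was at 382 and 411 CPM and at 833, 714 and 765 CPM, a log2 fold change of 0.96 (SE 0.190, adjusted p = 0.0616). Its call was lost in every fit that left out 1 library, at 0.117 to 0.647. It was the 1 gene that passed of 37 of NRF2 and oxidant defence, of which 13 (35.1%) lay above both controls and 4 (10.8%) below, against 10.8% and 11.1% of all genes, with a median of 0.09. Cyp2a22 was at 1.31 and 1.37 CPM and at 10.2, 4.51 and 5.94 CPM, a log2 fold change of 2.36 (SE 0.422, adjusted p = 0.0299, and 0.106, 0.323 and 0.503 without day 2 replicate 1, control 1 or control 2). It was the 1 of 74 P450 genes that passed, and reads may be shared within the Cyp2a cluster. Cyp2e1, named after its values were seen, was at 6557 and 7340 CPM in controls and at 6810, 5432 and 4112 CPM at day 2, which overlap (adjusted p = 1). The collectin Mbl2, a liver pattern-recognition protein, and the carboxylesterase Ces2e were named after their values were seen. Mbl2 was at 401 and 377 CPM and at 1182, 1166 and 1148 CPM, a log2 fold change of 1.58 (SE 0.229, adjusted p = 0.00676, and 0.167 without control 2). Ces2e was at 314 and 264 CPM and at 745, 807 and 719 CPM, a log2 fold change of 1.39 (SE 0.209, adjusted p = 0.00826, and 0.257 without control 2).

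The genes that fell included markers of the hepatocytes around the central vein. Glul (ENSMUSG00000026473, chromosome 1 from 153899944 to 153909723), glutamine synthetase, was at 1032 and 1042 CPM in controls and at 399, 337 and 428 CPM at day 2. The controls were nearly alike and the day 2 libraries all far below them, with a log2 fold change of -1.42 (SE 0.219, adjusted p = 0.00994). Oat (ENSMUSG00000030934, chromosome 7 from 132557475 to 132576398), ornithine aminotransferase, was at 1299 and 1254 CPM and at 426, 241 and 363 CPM, a log2 fold change of -1.89 (SE 0.285, adjusted p = 0.00826). Without control 2 the adjusted p was 0.154 for Glul and 0.114 for Oat. Of 21 pericentral genes tested, these 2 fell, none rose and 19 did not pass, against 0.0765% of all genes that fell. The list's median was -0.15, and 5 members (23.8%) lay below both controls and 1 (4.76%) above, against 11.1% and 10.8% of all genes. Slc1a2, the glutamate transporter of the same cells, was named after its values were seen and was at 248 and 262 CPM and at 124, 76.4 and 96.9 CPM (adjusted p = 0.158). Of 20 periportal genes none passed, with a median of -0.08.

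**Figure D2:**
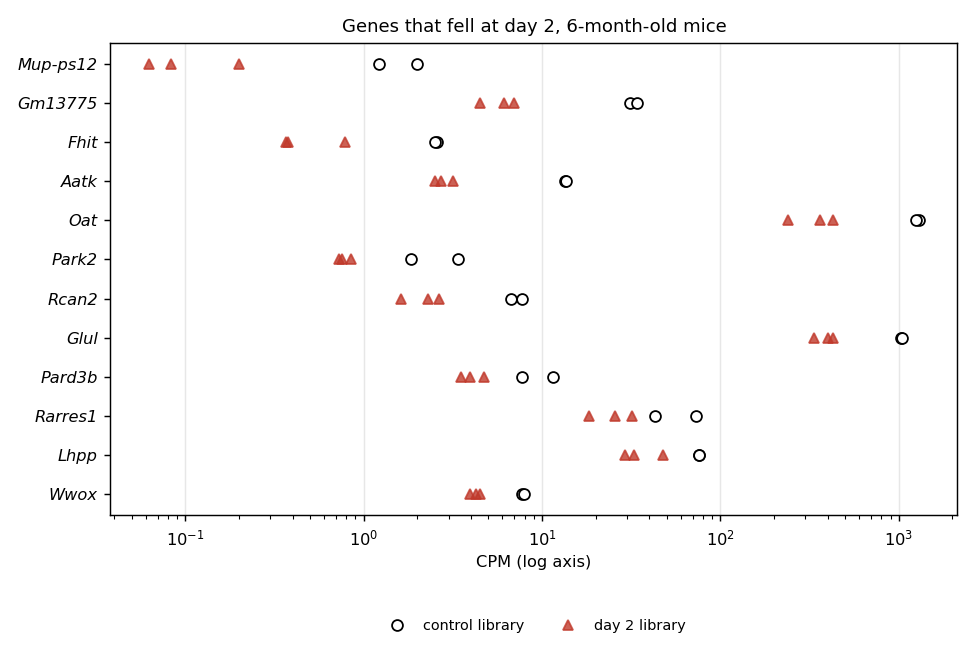
CPM on a log axis of the 12 genes that fell, with 1 row per gene and 1 mark per library (open circles 2 controls, triangles 3 day 2 libraries). In each row all triangles lie to the left of both circles, and the smallest gap is in Rarres1, whose controls also differ (43.1 and 72.6 CPM).

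Aatk (ENSMUSG00000025375, chromosome 11 from 120007313 to 120047167), a kinase known from apoptosis and the nervous system, was at 13.4 and 13.7 CPM in controls and at 2.72, 3.17 and 2.52 CPM at day 2. With a log2 fold change of -2.28 (SE 0.210, adjusted p = 2.27e-04) it had the smallest p of the genes that fell, and it passed without any 1 library. Rcan2, an inhibitor of calcineurin, was at 6.72 and 7.77 CPM and at 2.28, 1.63 and 2.66 CPM, a log2 fold change of -1.72 (SE 0.295, adjusted p = 0.0225, and 0.106 to 0.308 in the 3 fits without 1 library that lost it). Lhpp, a phosphatase, was at 76.3 and 76.0 CPM and at 47.5, 29.0 and 32.9 CPM, a log2 fold change of -1.06 (SE 0.207, adjusted p = 0.0538, and 0.241 to 0.475 in the 4 fits that lost it). Lhpp lies on the other strand 34.2 kb from Oat. Rarres1, a retinoid-induced membrane protein, was at 43.1 and 72.6 CPM and at 18.2, 31.8 and 25.8 CPM, a log2 fold change of -1.20 (SE 0.243, adjusted p = 0.0709, and 1, 0.296 and 0.248 without control 2, day 2 replicate 1 or day 2 replicate 3, with a log2 fold change of -0.77 without control 2). The other 2 genes that fell, the noncoding Gm13775 and the pseudogene Mup-ps12, lie on chromosome 4 among the Mup genes, whose copies may share reads. Gm13775 was at 31.1 and 34.0 CPM in controls and at 4.47, 6.93 and 6.14 CPM at day 2.

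The remaining 4 genes that fell span large stretches of genome. Fhit (ENSMUSG00000060579, chromosome 14 from 9550092 to 11162035), a tumor suppressor at a fragile site, spans 1612 kb and was at 2.57 and 2.50 CPM in controls and at 0.782, 0.376 and 0.365 CPM at day 2. Its log2 fold change was -2.29 (SE 0.344, adjusted p = 0.00826, and 0.130 without control 2). Park2 (ENSMUSG00000023826, chromosome 17 from 10840384 to 12063361), the ubiquitin ligase parkin, spans 1223 kb and was at 3.36 and 1.85 CPM and at 0.845, 0.752 and 0.730 CPM, a log2 fold change of -1.73 (SE 0.308, adjusted p = 0.0299). It passed without control 2 (0.0404) and was at 0.121 to 0.540 in the other fits without 1 library. Pard3b, a polarity protein whose gene spans 1003 kb, was at 11.5 and 7.71 CPM and at 4.76, 3.93 and 3.52 CPM, a log2 fold change of -1.24 (SE 0.249, adjusted p = 0.0693, and 0.135 to 0.961 without any 1 library). Wwox (ENSMUSG00000004637, chromosome 8 from 114439655 to 115352708), an oxidoreductase at another fragile site, spans 913 kb and was at 7.70 and 7.91 CPM and at 4.51, 3.93 and 4.25 CPM. Its log2 fold change was -0.88 (SE 0.168, adjusted p = 0.0443, and 0.168 to 0.518 without any 1 library). Exoc4, a subunit of the exocyst that spans 725 kb, went the other way, from 28.9 and 30.9 CPM to 66.7, 59.5 and 68.7 CPM, a log2 fold change of 1.12 (SE 0.134, adjusted p = 0.00138).

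Because of these 4 genes, all genes tested were then described by the genome they span, a choice made after the values were seen and given with no test. The median log2 fold change at day 2 was 0.01 in 4844 genes of up to 10 kb, -0.03 in 1171 genes of 100 to 200 kb, -0.11 in 552 genes of 200 to 500 kb and -0.19 in 112 genes over 500 kb. Of the 112, 83 (74.1%) had a negative log2 fold change, and 44 (39.3%) lay below both controls, against 11.1% of all genes, while 5 (4.46%) lay above both. The median over these 112 genes of log2 CPM minus the control mean was 0.02 and -0.02 in the controls and -0.29, -0.23 and -0.14 at day 2, so that each day 2 library was below both. In the 1-month-old mice, whose libraries are separate, it was 0.10 and -0.10 in the controls and -0.14, -0.65 and -0.19 at day 2, again below both controls, with day 2 replicate 2 far below the rest. Long genes were measured at lower levels than most, with a median of 4.98 CPM in controls against 11.0 CPM for all genes, and in the 84 with a mean of at least 1 CPM the median log2 fold change was -0.23. The part of RNA quality, of cell types and of the counting of reads in long genes was not tested.

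**Figure D3:**
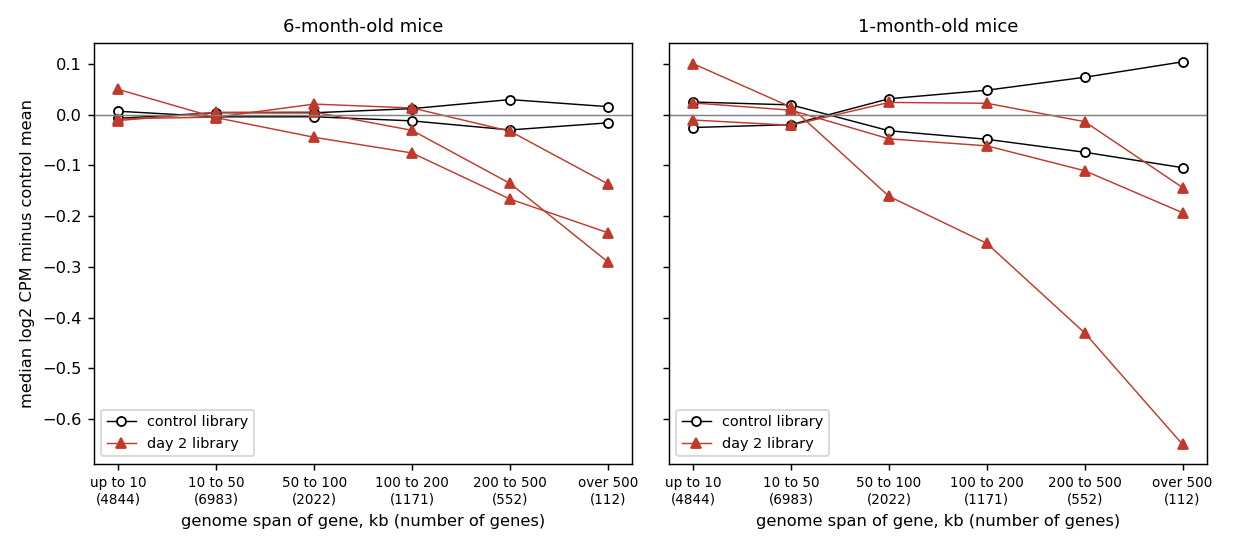
Median over genes of log2 CPM minus the mean of the controls of the same age (vertical axis) by the genome span of the gene in kb (horizontal axis, number of genes in brackets), with 1 line per library, at 6 months (left) and 1 month (right). Day 2 libraries (triangles) end below both controls (circles) in genes over 500 kb, at -0.29, -0.23 and -0.14 at 6 months.

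Among the other lists, most had no member that passed. In cell division, 33 genes were tested, none passed, and the median was -0.64. Of the 33, 8 (24.2%) lay below both controls and none above, against 11.1% and 10.8% of all genes. Mki67, the proliferation antigen Ki-67, named after its values were seen, was at 5.84 and 16.1 CPM in controls and at 5.70, 2.97 and 8.76 CPM at day 2, so that the groups overlap, with control 1 below day 2 replicate 3. The interferon response had a median of -0.28 with none of 29 genes passing. Cholesterol synthesis and uptake had a median of -0.22 with none of 23 passing, and the integrated stress and unfolded protein response had 0.29 with none of 25 passing. Among 32 genes of fasting and fatty acid oxidation none passed. Cyp4a14, an omega-hydroxylase of that list named after its values were seen, was at 91.7 and 48.1 CPM in controls and at 1576, 24.2 and 55.9 CPM at day 2, so that 1 library carried all of its rise in the mean.

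**Figure D4:**
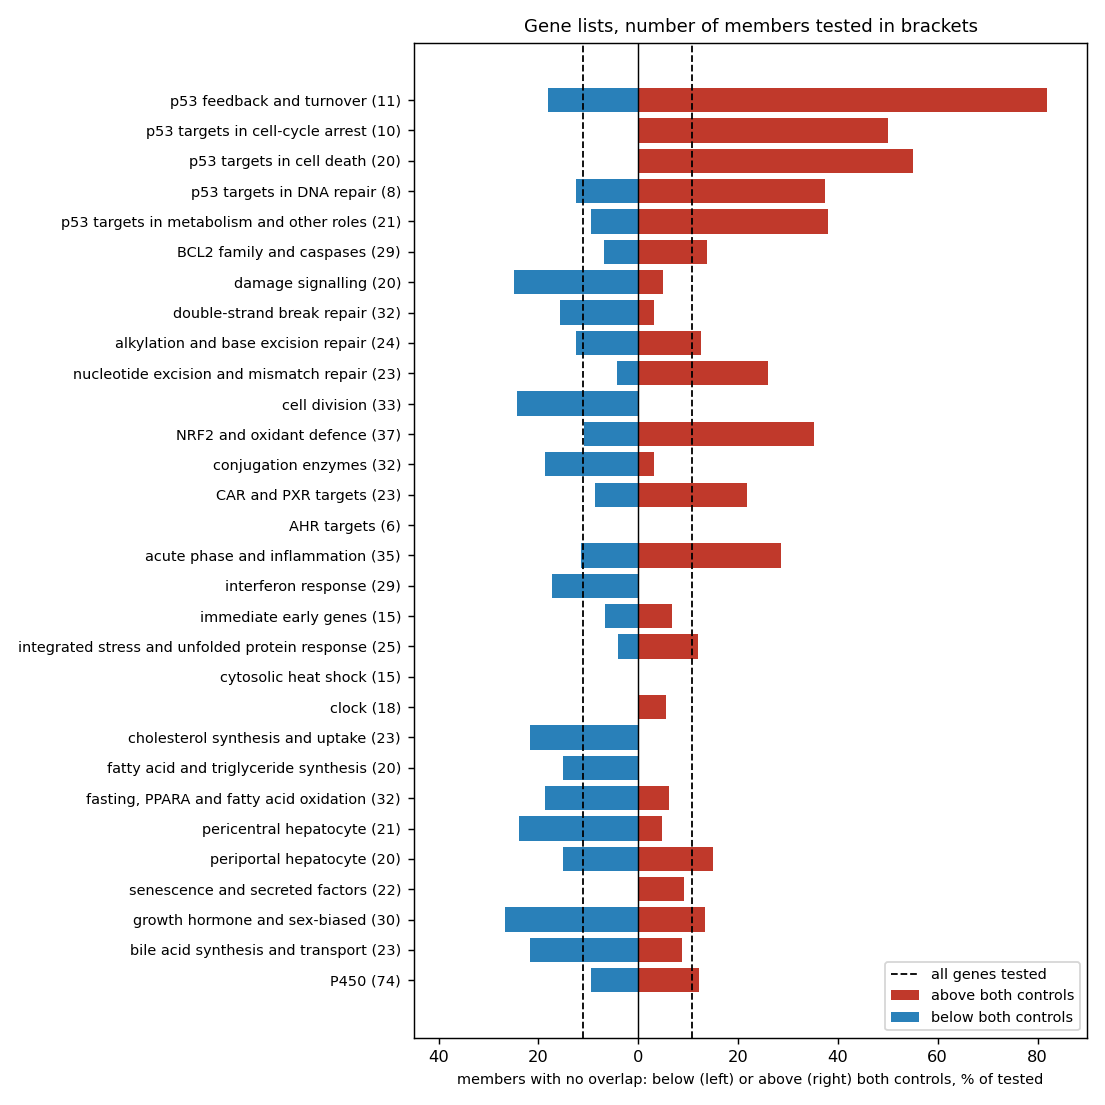
Share of the tested members of each of 30 gene lists whose 3 day 2 libraries all lay below (left, blue) or above (right, red) both controls, in % of members tested, with dashed lines at the shares over all genes tested (11.1% and 10.8%). The 5 p53 lists extend farthest to the right, at 37.5% to 81.8%.

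Markers of other cell types were compared in the same way. Of 13 marker lists, none had a member that passed. The summed level of 12 markers of sinusoidal endothelium was 403 to 531 CPM in controls and 326 to 430 CPM at day 2, with a median log2 fold change of -0.28. Of these 12, 4 lay below both controls at day 2 and none above, against 11.1% and 10.8% of all genes. The summed level of 16 macrophage markers was 983 to 1209 CPM in controls and 742 to 1226 CPM at day 2. For 6 mesothelium markers, 5 lay above both controls at day 2, against 10.8% of all genes, with a median of 1.25, while their sum was 229 to 246 CPM in controls and 225 to 237 CPM at day 2, most of it Krt8. Epidermis and muscle markers were near 0 in all libraries, at sums of 0 to 0.398 CPM, and none of those 8 had enough counts to be tested. The sum of 6 adipocyte markers was 3249 to 3636 CPM in controls and 1669 to 2585 CPM at day 2, nearly all of it Car3, which hepatocytes also express. Of the others, Cfd was at 2.29 and 1.11 CPM in controls and at 0.250, 0.0418 and 0.863 CPM at day 2 (log2 fold change -2.07, unadjusted p = 0.0178, adjusted p = 0.921), Plin1 and Adipoq were at most at 0.0569 CPM, and Retn and Lep had no count in any of the 5 libraries. The part of changes in these cells in the results above was not tested.

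At 1 month, the same comparison was made in separate libraries, which had entered the choice of the 50 genes only through the filter on low counts and the common estimate of the spread. With the 5 libraries of the 6-month comparison alone, 38 of the 50 genes passed. Of the 38 genes that rose at 6 months, 37 had a positive log2 fold change at 1 month, against 48.4% of all genes, and 28 had an unadjusted p under 0.05, against 7.16% of all genes. Of these, Ddit4l and Atp8b5 passed, out of 3 genes that passed in all, and neither did without 1-month control 1, control 2 or day 2 replicate 2. The number of the 38 that passed at 1 month was 10 without 1-month day 2 replicate 3, 4 without replicate 1 and 0 without replicate 2. It thus depended on which day 2 libraries were used. Of the 12 that fell, 11 had a negative value and none passed. The 14 p53 list genes that rose were all positive at 1 month. The median log2 fold change was 2.08 at 6 months and 0.84 at 1 month for the genes that rose and -1.72 and -0.86 for those that fell. Without any 1 of the 1-month libraries these medians at 1 month were 0.71 to 1.00 and -0.68 to -1.07. All 50 were smaller in size at 1 month, and since the genes were chosen for their values at 6 months this is a direction that the choice favours.

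**Figure D5:**
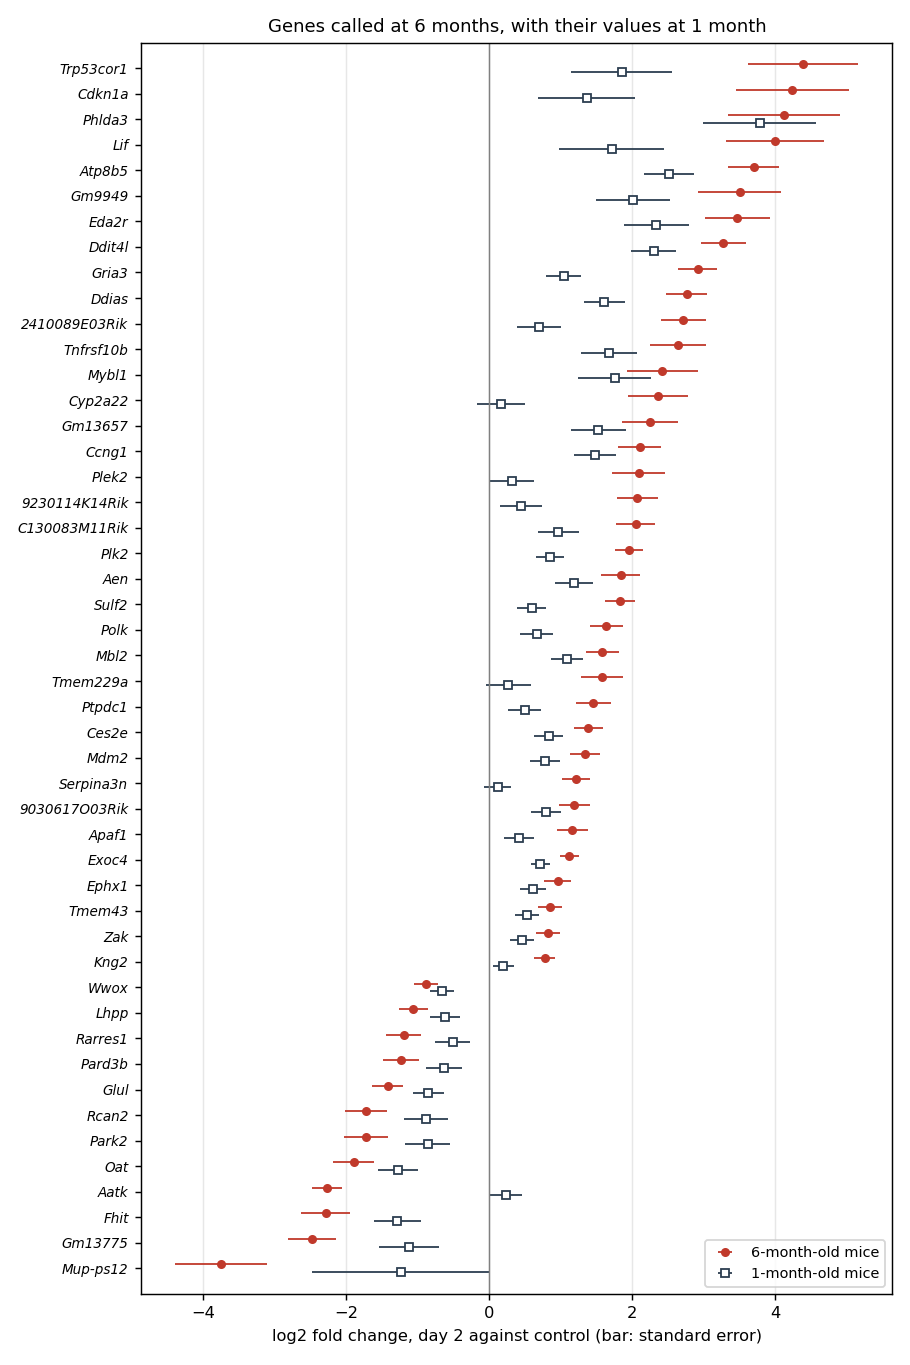
Log2 fold change at day 2 (horizontal axis, bars show the SE) of 48 of the 50 genes that passed at 6 months (filled circles), with the value of the same gene at 1 month (open squares), without Sec14l5 and Lrtm2, whose controls had 0 and 2 counts. Squares lie between 0 and the circle in all rows but that of Aatk, which has its square on the other side of 0.

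When the difference between the ages was tested itself, 1 gene of 15684 passed (0.00638%), and it was Aatk. At 6 months Aatk fell by a log2 fold change of 2.28, and at 1 month its log2 fold change was 0.23 (SE 0.232), a difference of -2.51 (SE 0.316, adjusted p = 0.0232). In 1-month-old controls Aatk was at 1.76 ± 0.227 CPM (SD, n = 2) against 13.6 ± 0.188 CPM (SD, n = 2) at 6 months, so that the level at day 2 was similar at both ages, 2.07 ± 0.559 CPM (SD, n = 3) and 2.81 ± 0.334 CPM (SD, n = 3). The call was lost without 1-month control 2, 6-month control 2 and 6-month day 2 replicates 1 and 3, where no gene passed. Aatk also did not pass without 1-month control 2, day 2 replicate 3 and day 6 replicate 2 together, where its difference was -2.48 (SE 0.386). Of the 50 genes, 23 had an unadjusted p under 0.05 for the difference between the ages, which over all genes was found for 699 (4.46%). The 6-month values by which the 50 were chosen are part of this difference, so that the choice favours such a count. Cdkn1a and Gria3 did not pass. Gria3 had log2 fold changes of 2.91 at 6 months and 1.04 at 1 month. For Cdkn1a the 1-month controls were far apart, at 4.22 and 56.4 CPM, against 47.6, 106 and 81.4 CPM at day 2, so that control 2 lay within the range of the treated libraries. Its log2 fold change at 1 month was 1.37 with both controls, 4.21 without 1-month control 2 and 0.47 without 1-month control 1, against 4.24 at 6 months. The difference between the ages was 2.88 (SE 0.949, adjusted p = 0.943) with both, 0.03 (adjusted p = 1.00) without control 2 and 3.77 (adjusted p = 0.0759) without control 1. When either of these controls was left out, the adjusted p of Cdkn1a at 6 months, 0.0401 with both, was 2.8e-04.

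Day 6 libraries of the same age were set against day 2 directly, without pairing by number. Of 15684 genes 2 passed (0.0128%), Apoa4 and Gm10680, an antisense gene that overlaps it, and both were named after their values were seen. Apoa4, an apolipoprotein of triglyceride-rich particles, was at 200, 179 and 183 CPM at day 2 and at 70.0, 57.2 and 60.3 CPM at day 6, with 85.8 and 101 CPM in the controls. The difference between the days was -1.58 (SE 0.237, adjusted p = 0.0797), and no gene passed when any 1 of the 6 libraries was left out. Without strand, reads from Apoa4 and its antisense gene cannot be told apart. None of the 50 genes passed for a difference between the days, and 10 had an unadjusted p under 0.05, against 1.72% of all genes, a comparison that the choice of the 50 by their day 2 values favours. Cdkn1a was at 197, 129 and 198 CPM at day 6, Ccng1 at 223, 173 and 192 CPM, and Glul at 550, 594 and 391 CPM. Wwox was at 7.14, 5.60 and 5.71 CPM at day 6, between its levels in controls and at day 2. Both days share the controls, so their fold changes are not independent of each other.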

How the data were processed

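Raw counts for each gene, as deposited by the authors, were the unit used here, and the alignment behind them was by TopHat2 2.0.13 (genome GRCm38, genes of Ensembl 84). No source used here names the program that assigned reads to genes or says whether strand was used. The deposited table also holds the authors' fold changes and adjusted p-values, which were not used, and 16 columns of normalized counts, which were not used. Of 47729 genes, 10 without any value were left out.

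Counts were scaled by TMM and filtered by filterByExpr over the 6 groups, and edgeR 4.0.16 in R 4.3.3 fitted 15684 genes by its quasi-likelihood test (glmQLFTest) in 1 model of all 16 libraries, with Benjamini-Hochberg adjustment over all genes and a threshold of 0.1. DESeq2 1.42.0 and limma 3.58.1 served as alternatives. Fold changes have a prior count of 0.125 and are of fitted values. The script was tested on simulated data. The common biological coefficient of variation was 0.218. A group left with 1 library is assumed to vary like the others. Labels do not say whether the pools came from separate experiments, so that p-values measure the spread between pools.

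Same-numbered libraries of day 2 and day 6 deviated together (correlations 0.252, 0.233 and 0.493), against -0.430 to 0.223 for different numbers. Those of control and day 2 did not (-0.169 and -0.0464). The numbers may thus pair only the 2 days, and 1 pair of different numbers came close to the lowest same-numbered value. The main test of day 6 against day 2 did not use a pairing, and with a replicate block Apoa4 and Gm10680 were again the genes that passed.

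Named by rule were, in each direction, the 15 genes of greatest log2 fold change that passed without overlap of libraries (only 10 fell), with a symbol other than a Gm, Rik or pseudogene name and 1 CPM or more as the higher group mean, up to 4 that passed of each list, and the 2 of smallest p that did not pass in each p53 list. Trp53, Lrtm2, Krt8, Adipoq, Retn, Cfd, Plin1, Lep, Car3, Alb and Mup-ps12 were named outside the rule. The comparison, the lists and the rule were chosen with earlier results of these data known. Lists are described by counts and medians, without a test. Figures were made with matplotlib 3.10.9.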

Additional observations from a re-analysis of the deposited data

Results flagged for a closer look

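The response of Aatk differed between the ages in the test of the difference itself, by -2.51 on the log2 scale (6 months minus 1 month, SE 0.316, adjusted p = 0.0232 by edgeR's quasi-likelihood test). It was lower at day 2 in 3 of 3 libraries at 6 months, and at 1 month the log2 fold change was 0.23. In untreated livers Aatk was at 13.6 CPM at 6 months and 1.76 CPM at 1 month. No gene passed with the replicate block or without 1-month control 2, 6-month control 2 or 6-month day 2 replicate 1 or 3, where the adjusted p of Aatk was 0.110 to 0.4001. Aatk also did not pass without 1-month control 2, day 2 replicate 3 and day 6 replicate 2 together, where the difference was -2.48 (SE 0.386). The clock scores of these libraries were -0.77, -1.72 and -2.19, against 1.97 to 4.93 in the other 1-month libraries. That fit keeps only control 1 at 1 month. Groups of 2 and 3 libraries are too small for a test of outlying samples.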

How the results depend on the processing

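The count of 50 genes that changed at day 2 was 119 with DESeq2 and 135 without a filter on low counts. Leaving out 1 of the 5 libraries gave 12 to 38 genes. With the other scaling, limma-voom, a stricter filter, fewer libraries in the model, the clock score as a covariate or a robust fit it was 49 to 75. With a replicate block it was 43, of which 37 were among the 50. The numbers were not found to pair controls with day 2. The difference between the ages (1 gene) was 9 genes with DESeq2, 23 without a filter, 0 with the replicate block, and 0 to 11 when 1 of 10 libraries was left out. The difference between days 6 and 2 (2 genes) was 10 genes without a filter and 0 when any 1 of 6 libraries was left out, and it kept Apoa4 and Gm10680 with the replicate block. None of the 42 genes named by rule changed sign under the alternatives, which were not run for genes named after their values were seen. The median of genes over 500 kb was -0.29 to -0.15 over 17 alternatives, added after seeing the data. With 2 controls, each of which decides calls, smaller changes cannot be resolved. The part of sequencing depth was not tested.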
